A study of Mus musculus with 2 samples.

Results

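Small RNA tags that carried nontemplated adenosine at the 3′ end of a miRNA were examined in J1 mESCs. A tag is a distinct read sequence with its number of reads. A tag was taken as A-tailed when it matched no GENCODE M21 transcript perfectly, but matched a miRNA hairpin perfectly once the fewest 3′ bases, 1 to 3 and all A, were removed and at least 18 bases were left. Of 1695245 distinct tags, 3567 met this rule, with 2624 of them in the DMSO library and 2717 in the PD library. Of these, 3501 lay in the mature region of a hairpin arm and were assigned to that arm, which left out 52 A-tailed reads in DMSO and 63 in PD.

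J1 is an established mESC line of the 129 mouse strain. The cells were grown on gelatin in the presence of the cytokine LIF (1000 U/mL), which supports self-renewal, and received either PD0325901 (PD, 1 μM), an inhibitor of the kinase MEK, or DMSO for 24 h. For each treatment the RNA of 3 experiments was mixed before a single small RNA library was made, so there were no replicates, and the spread between cultures cannot be seen. Clean reads numbered 18870345 with DMSO and 20944808 with PD. Templated reads of the 23 arms of miRNAs typical of mESCs (the miR-290-295 and miR-302-367 clusters) summed to 33362 RPM (reads per 1000000 clean reads) in DMSO and 28668 in PD, against 455 and 677 RPM for 11 arms of miRNAs typical of muscle, liver, nerve and blood cells.

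Drosha and Dicer cut miRNAs out of a hairpin, so that Dicer makes the 3′ end of the 5p arm and Drosha that of the 3p arm. Terminal nucleotidyltransferases can then add bases that the gene does not encode. The poly(A) polymerases TENT2 (GLD-2) and TENT4B (PAPD5) are known to add adenosine, while TUT4 and TUT7 add uridine. Such additions have been linked to the stability of some miRNAs and to the trimming of others. They leave the seed, bases 2 to 8 from the 5′ end by which a miRNA recognises its targets, unchanged.

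The A-tailed tags with most reads are shown first for the miRNAs with the highest A-tailed shares, because they show what was counted. The template is in lower case and the added adenosine in capitals. All are written 5′ to 3′ in DNA letters, as in the tag files.
miR-298-5p: ggcagaggagggctgttcttcccA
miR-341-3p: tcggtcgatcggtcggtcggtA
miR-151-3p: ctagactgaggctccttgaggaA
miR-127-3p: tcggatccgtctgagcttggctA
miR-183-5p: tatggcactggtagaattcactgA
miR-291b-5p: gatcaaagtggaggccctctcA
miR-292a-5p: actcaaactgggggctcttttA
miR-379-5p: tggtagactatggaacgtaggA
miR-20a-5p: taaagtgcttatagtgcaggtagA
miR-744-5p: tgcggggctagggctaacagcaA
let-7b-5p: tgaggtagtaggttgtgtggttA

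The next tags belong to the other arms with most A-tailed reads, to arms at the low end of the range (miR-96-5p and miR-29a-3p), and to arms whose share differed most between the libraries, and are shown for the same reason.
miR-140-3p: accacagggtagaaccacggaA
miR-290a-5p: actcaaactatgggggcactttA
miR-191-5p: caacggaatcccaaaagcagctgA
miR-181d-5p: aacattcattgttgtcggtgggtA
miR-96-5p: tttggcactagcacatttttgcA
miR-29a-3p: tagcaccatctgaaatcggttaA
miR-124a-3p: taaggcacgcggtgaatgccaaA
miR-152-3p: tcagtgcatgacagaacttggA
miR-148b-3p: tcagtgcatcacagaactttgtA

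The mature sequences of RefSeq (GRCm38.p6) are given for miRNAs with a common seed and for arms with different shares, with the seed in capitals and in RNA letters. miR-290a-5p and miR-292a-5p share the seed CUCAAAC, and miR-148b-3p and miR-152-3p share CAGUGCA.
miR-290a-5p: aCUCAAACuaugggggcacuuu
miR-292a-5p: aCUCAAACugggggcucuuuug
miR-148b-3p: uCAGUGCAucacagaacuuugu
miR-152-3p: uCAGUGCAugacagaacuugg
miR-298-5p: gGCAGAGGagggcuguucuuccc
miR-140-3p: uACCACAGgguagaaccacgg
For miR-290a-5p, miR-292a-5p, miR-298-5p and miR-140-3p the most frequent tag in these cells was not identical to the RefSeq sequence. Template ends are therefore counted from the 3′ end of the most frequent templated tag of the arm over both libraries, called the leading end.

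In GENCODE M21 on GRCm38, Mir298 lies at chr2:174267504-174267585 on the minus strand with no other gene on that strand, and Mir183 at chr6:30169668-30169737, also on the minus strand without an overlapping gene there. Mir127 (chr12:109592846-109592915), Mir341 (chr12:109611500-109611595, in an intron of Rian) and Mir379 (chr12:109709060-109709125) lie on the plus strand of the imprinted Dlk1-Dio3 region. Mir290a (chr7:3218626-3218708), Mir292 (chr7:3219189-3219270) and Mir291b (chr7:3219482-3219560) lie together on the plus strand. Mir140 (chr8:107551244-107551313, plus strand) overlaps an exon of Wwp2, Mir744 (chr11:65734733-65734832, minus strand) lies in an intron of Map2k4, and Mir151 (chr15:73254815-73254882, minus strand) lies in an intron of Ptk2.

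A-tailed reads were a small part of the miRNA reads in both libraries. The A-tailed share, that is A-tailed reads over templated plus A-tailed reads, was 4.60% in DMSO (105003 A-tailed and 2175746 templated reads, Wilson 95% interval 4.58 to 4.63%) and 4.88% in PD (107870 and 2104492 reads, 4.85 to 4.90%). Reads were amplified by PCR without molecular identifiers, so all intervals and tests given here cover the counting of reads only. Most tails were short. A single A made up 82.9% of the A-tailed reads in DMSO and 82.6% in PD, 2 A made up 15.5% and 15.7%, and 3 A made up 1.54% and 1.67%.

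The other bases were counted by the same rule for comparison. U-tailed shares were close to those of A, at 4.48% in DMSO and 4.80% in PD. G-tailed shares were 0.691% and 0.865%, and C-tailed shares were 0.131% and 0.157%. Reads in which an internal base, at positions 9 to 16 of the most frequent tag, was replaced by A made up 0.00674% per position in DMSO and 0.00637% in PD. Thus additions of A and U stood far above both the other bases and internal changes to A.

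For single arms, at least 1000 templated plus A-tailed reads were required in each library, which 128 of 1131 arms with reads met, 69 of them 5p and 59 3p. The median share of these arms was 3.36% in DMSO, with quartiles of 1.36 and 6.60%, and 3.68% in PD, with quartiles of 1.68 and 7.002%. In both libraries 15 arms had a share of 10% or more, 41 had 5% or more and 18 had less than 1%. None of the 128 arms was without A-tailed reads. The A-tailed share was above the sum of the G-tailed and C-tailed shares in both libraries for 122 arms, and above the U-tailed share for 85. The order of the arms was much the same in both libraries, with a Spearman's rho of 0.97 over the 128 arms. It followed the number of templated reads hardly at all, with a rho of 0.05 in DMSO and 0.03 in PD. These values describe arms of the same libraries and carry no test.

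A few arms held much of the A-tailed reads. The 5 arms with most A-tailed reads (miR-140-3p, miR-290a-5p, miR-298-5p, miR-191-5p and miR-181d-5p) held 39.9% of the A-tailed reads in each library, but 21.1% of the templated reads in DMSO and 22.4% in PD. They were chosen by their A-tailed reads, so the choice itself favours a larger part of these. miR-140-3p, best known from cartilage, had 11269 A-tailed reads and a share of 7.26% in DMSO, and 13212 reads and 6.81% in PD. miR-290a-5p, from the main miRNA cluster of mESCs, had 10920 reads (5.01%) and 10072 reads (5.04%). miR-191-5p had 4995 reads (9.67%) and 5963 reads (11.6%), and miR-181d-5p 4836 reads (9.72%) and 4540 reads (9.83%). Thus miR-290a-5p combined many reads with a share slightly above that of all miRNA reads, 4.60% in DMSO and 4.88% in PD. miR-293-3p of the same cluster had more templated reads, but 3462 and 3075 A-tailed reads. miR-191-5p and miR-181d-5p had both many reads and a high share.

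With all reads counted, the highest share was that of miR-298-5p, a miRNA of the imprinted Gnas locus. In DMSO it had 9842 A-tailed and 15969 templated reads, a share of 38.1% (37.5 to 38.7%), and in PD 9270 and 14512 reads, a share of 39.0% (38.4 to 39.6%). The form with a single A after the 23-nt template shown above had more reads than its own template in DMSO, with 2824 against 2298 reads, and nearly as many in PD, with 2727 against 2808. Its other main forms were 1 and 2 bases shorter.
miR-298-5p, 22 nt: ggcagaggagggctgttcttcA
miR-298-5p, 23 nt: ggcagaggagggctgttcttccA
These had 1802 and 1616 reads, and 1656 and 1474 reads, in DMSO and PD. Tailing of this arm was thus spread over neighbouring ends, and 25.8% of its A-tailed reads had 2 or 3 A.

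Among the 12 highest arms, miR-127-3p, miR-341-3p and miR-379-5p come from the imprinted Dlk1-Dio3 region. The shares of other arms of that region varied. miR-409-3p had 8.53% in DMSO and 8.80% in PD, and miR-495-3p had 7.65% and 7.05%, both named after their values were seen. Lower were miR-382-3p with 0.448% in DMSO and 0.810% in PD, and miR-494-3p, also named after its values were seen, with 2.06% and 2.07%. miR-127-3p had a share of 19.5% (4073 A-tailed reads) in DMSO and 19.4% (3367) in PD, and 40.4% of its tails had 2 or 3 A. The same template of this arm carried a single A in 1668 and 1361 reads and a pair of A in 1297 and 1047 reads.
miR-127-3p, 1 A: tcggatccgtctgagcttggctA
miR-127-3p, 2 A: tcggatccgtctgagcttggctAA
miR-379-5p had shares of 14.9% (701 A-tailed reads) and 15.8% (631), with 34.5% of its tails longer than 1 A. miR-341-3p had shares of 30.6% (1980) and 19.3% (1595), of which 83.9% were the single tag shown above. miR-341-3p also had the highest U-tailed share of all measured arms in DMSO, 66.2%, against 51.4% in PD. A difference between the 129 strain and the C57BL/6J reference at this end would be counted as a tail and was not tested.

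Among the remaining arms with high shares, miR-183-5p, a miRNA of the sensory miR-183 cluster, had shares of 18.9% (799 A-tailed reads) and 16.7% (794). Its tails sat on a template 1 base longer than its most frequent tag. At that longer end 36.5% of the reads in DMSO and 33.9% in PD were A-tailed, against 2.63% and 1.98% at the leading end. By contrast, miR-96-5p of the same cluster was among the lowest, with 11 A-tailed reads in each library and shares of 0.469% and 0.439%. miR-151-3p had shares of 23.2% (244 A-tailed reads) and 20% (216), although 52.9% of its templated reads ended before an A of the hairpin, where an added A cannot be seen. On its other ends the shares were 39.4% and 34.4%. miR-744-5p had 11.91% (2566) and 12.001% (2481), and in 92.5% of its A-tailed reads a single A followed the 22-nt mature sequence. miR-503-5p, which is linked to the cell cycle, had 10.8% (348) and 12.4% (467).

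The lowest shares were those of miR-690, miR-363-3p, miR-467a-3p with miR-467d-3p, miR-29a-3p and miR-96-5p. miR-690 had 1 A-tailed read in each library (0.0636% and 0.0401%) and miR-363-3p had 3 and 2 reads (0.108% and 0.101%), so both were at or under 3 reads. In 98.2% of the templated reads of miR-690, 85.4% of those of miR-363-3p and 79.1% of those of miR-467a-3p with miR-467d-3p, however, the next base of the hairpin was an A. An added A cannot be told from the encoded one at such ends. miR-29a-3p, which is known to target DNA methyltransferases, and miR-96-5p were not of this kind, with 4.49% and 0% of templated reads before an A. Their shares of 0.398% and 0.475%, and of 0.469% and 0.439%, were thus low at ends where tails could be seen. The U-tailed share of miR-363-3p was 41.6% in DMSO and 52.2% in PD, so a low A-tailed share did not mean an end without additions.

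The next base of the hairpin mattered for other arms too. In 13 of the 128 arms more than 50% of the templated reads ended before an A, and their median A-tailed share was 0.842% in DMSO and 0.789% in PD. In the 86 arms with less than 10% of such reads the medians were 3.56% and 3.91%. With only the ends whose next base was not A, the median over the arms was 4.07% and 4.36%. Such a visible share can take in tails that began before an encoded A, while the templated reads of those ends are left out. miR-294-5p, whose templated reads ended before an A in 96.4% of cases, had shares of 0.577% and 0.761% with all reads and 14.4% and 16.7% with the visible ends alone. For miR-140-3p, with 61.3% of such reads, the visible share was 15.97% in DMSO and 16.58% in PD. On visible ends miR-298-5p, with 38.1% and 39.0%, was not the highest arm. miR-151-3p, with 620 visible reads in the smaller library, was above it in DMSO. miR-320-3p, named after its values were seen, had 99.4% of its templated reads before an A. Its visible shares were 38.3% (365 A-tailed reads) and 61.7% (368). Only 114 of the 128 arms kept 1000 reads in each library on visible ends. miR-151-3p, miR-294-5p and miR-320-3p did not, so their visible shares rest on few reads.

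The 5p and 3p arms were compared because their 3′ ends come from different enzymes. The median share of the 5p arms was 3.52% in DMSO and 3.77% in PD, and that of the 3p arms 3.04% and 2.95%. The pooled reads of all 5p arms had shares of 6.10% and 6.32%, and those of the 3p arms 3.21% and 3.44%. For U tails the medians were the other way round, at 1.29% and 1.36% for 5p arms and 2.33% and 3% for 3p arms. Arms are not replicates, so no test was made. Where only the visible ends were used, the medians averaged over both libraries were 4.13% for 5p and 4.12% for 3p arms. With at least 5000 reads in each library they were 3.63% for 5p and 3.93% for 3p arms, so the medians were nearly equal with the former choice and their order turned with the latter.

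Within the 16 hairpins with both arms measured, the A-tailed share was higher on the 5p arm in both libraries for 8, higher on the 3p arm for 7 and mixed for 1. The largest differences were in the miR-290-295 cluster. miR-291b-5p had shares of 17.95% (985 A-tailed reads) and 17.5% (1070), while miR-291b-3p had 1.48% (15) and 1.09% (12), a ratio of the mean shares of 13.8. miR-292a-5p had 18.2% (2503) and 16.5% (2707), while miR-292-3p had 1.39% (362) and 1.31% (370), a ratio of 12.8. miR-363-5p had 0.804% (149) and 0.893% (161) against the 3 and 2 A-tailed reads of miR-363-3p given above, a ratio of 8.12 that rests on those few reads. On visible ends miR-363-5p had 0.804% and 0.893% and miR-363-3p 0.578% and 1.12%. The values of miR-363-3p rest on the same 3 and 2 A-tailed reads, with 178 reads in the smaller library. They are too few to compare the arms there. The other direction was seen in Mir485, named after its values were seen, with 1.03% and 1.24% on the 5p arm and 7.72% and 9.70% on the 3p arm. Of the templated reads of miR-485-5p 51.2% ended before an A, and the visible shares were 1.86% and 2.93% on the 5p arm and 7.74% and 9.77% on the 3p arm. A hairpin thus did not set 1 level for both of its arms.

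Tails were not placed evenly over the template ends of an arm. For this comparison, templated reads that ended before an A of the hairpin were left out. Of all A-tailed reads, 51.6% sat on the leading end, against 70.5% of the remaining templated reads. Ends 1 base shorter held 27.7% of the A-tailed and 11.7% of these templated reads. The pooled share there was thus 11.9% in DMSO and 13.0% in PD, against 4.13% and 4.28% at the leading end. miR-140-3p alone gave 10195 of the 28217 A-tailed reads on the shorter end in DMSO and 11690 of 28807 in PD. Its own leading end lay before an A and did not enter the comparison. Its shorter end has A as the last base, so a tail that began 1 base earlier would give the same tags and could not be told apart. Over arms with at least 100 reads at the end in question, the median share was 5.65% at the shorter end (101 arms) and 3.38% at the leading end (114 arms). This was not a property of every arm. Ends shorter by 1 to 4 bases had a higher share than the leading end in 66 of 108 arms, and longer ends in 33 of 64.

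Several abundant miRNAs showed this pattern. miR-181d-5p had a share of 44.7% in DMSO and 43.7% in PD on the end 1 base shorter than its leading end, and 4.48% and 4.33% on the leading end itself.
miR-181d-5p, 1 base shorter: aacattcattgttgtcggtgggtA
miR-181d-5p, leading end: aacattcattgttgtcggtgggttA
miR-290a-5p had its tails on a series of ends in the U stretch at the 3′ end of the arm, where T stands for U. Its shares in DMSO were 27.5% on the end 2 bases shorter, 8.74% on the end 1 base shorter, 3.57% on the leading end and 1.995% on the end 1 base longer, and in PD they were 28.1%, 8.59%, 3.74% and 2.14%.
miR-290a-5p, 1 base shorter: actcaaactatgggggcactttA
miR-290a-5p, leading end: actcaaactatgggggcacttttA
miR-290a-5p, 1 base longer: actcaaactatgggggcactttttA
The share of miR-290a-5p was thus lower with each further base over these ends in both libraries. This did not hold for still shorter ends. The end 3 bases shorter had 7.88% in DMSO and 8.86% in PD, and the end 4 bases shorter 9.69% and 12.2%. In miR-503-5p the end 1 base shorter was A-tailed in 42.8% of reads in DMSO and 50.5% in PD, and in miR-127-3p in 59.2% and 63.1%. miR-191-5p was of the opposite kind, with 2.31% and 3.55% on that end and 17.6% and 19.1% on its leading end. For miR-503-5p the shorter end had only 143 templated reads in DMSO and 140 in PD, and its last base is A. A tail of 2 A on the end before it would give the same tag and could not be told apart.

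The last base of the template was compared across the arms, again without templated reads that ended before an A of the hairpin. A template that ends in A can also be a shorter one with an added A, which the counts cannot tell apart. Pooled over both libraries, 13.4% of the reads whose template ended in C, 10.1% of those ending in G, 8.85% of those ending in A and 3.85% of those ending in U were A-tailed. Over arms with at least 100 reads of that kind, the medians were 3.75% for C (61 arms), 5.26% for G (74), 4.94% for A (61) and 3.02% for U (99). U was thus lowest by both measures, while the order of the others differed, and arms of few but abundant miRNAs weigh on the pooled values. The 5′ ends, which set the seed, were compared as well. In the median arm with at least 100 A-tailed reads, 98.0% of the A-tailed and 98.7% of the templated reads began at the first base of the most frequent tag. Pooled over the 128 arms, these were 88.0% of the A-tailed and 92.0% of the templated reads, so the pooled A-tailed reads began elsewhere somewhat more often. miR-140-3p weighs on the pooled values. Its tag with most A-tailed reads, 5289 in DMSO and 5460 in PD, lacks the first base of its RefSeq sequence.

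The miRNAs of the miR-290-295 cluster make up a large part of the miRNAs of mESCs and act on the cell cycle. Their median A-tailed share was below that of all measured arms, while single arms differed widely. Of 16 arms with reads 13 were measured, with shares from 0.577 to 18.2% and a median of 1.58% in DMSO, and from 0.761 to 17.5% and a median of 1.72% in PD. Over all 128 arms the medians were 3.36% and 3.68%. The lowest shares of the cluster were those of miR-294-5p, with 96.4% of its templated reads before an A of the hairpin. On its visible ends the shares were 14.4% in DMSO and 16.7% in PD, from 43 and 59 A-tailed reads. The most abundant arm, miR-293-3p, had 1.56% (3462 A-tailed reads) and 1.503% (3075), and miR-294-3p 0.824% (454) and 0.818% (404). Above the median of the cluster in both libraries were miR-291b-5p, miR-292a-5p and miR-290a-5p, described above, as well as both arms of miR-291a and miR-295-5p. miR-290a-5p and miR-292a-5p have the same seed, but shares of 5.01% and 18.2% in DMSO.

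None of the 9 arms of the miR-302-367 cluster, which rises as mESCs leave the naive state, reached 1000 reads. Together they had 4 A-tailed and 287 templated reads in DMSO (1.37%) and 9 and 560 reads in PD (1.58%). Thus no arm of this cluster can be described at this depth.

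The miR-17-92 cluster and its paralogs, miR-106b-25 and miR-106a-363, promote proliferation. Of their 28 arms with reads 13 were measured, with a median of 3.57% in DMSO and 4.87% in PD. miR-20a-5p had 10.7% (126 A-tailed reads) and 16.1% (192), miR-17-5p 8.003% (190) and 10.4% (236), and miR-93-5p 3.70% (274) and 5.42% (450). These belong to the same seed family, with the seed AAAGUGC. miR-25-3p, the most abundant of these arms, had 0.640% (636) and 0.668% (526). Members of these clusters thus ranged from miR-363-3p, among the 5 lowest arms, to miR-20a-5p, among the 12 highest.

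let-7 miRNAs favour differentiation. Of 14 arms with reads of let-7 and miR-98, 7 were measured, with medians of 4.05% in DMSO and 4.09% in PD. Apart from let-7b-5p, the other 6 lay between 3.36 and 5.23% in DMSO and between 3.48 and 5.24% in PD, among them let-7c-5p with 4.05% (2583 A-tailed reads) and 4.26% (2539) and let-7a-5p with 3.64% (1291) and 3.67% (1342). let-7b-5p had the highest share of the family, 11.99% (233) and 11.7% (222).

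The comparison of PD with DMSO asks whether tailing differed when MEK was inhibited. With 1 library each, the tests compare these libraries and not the treatments. Over all miRNAs the A-tailed share was 1.06 times as high in PD as in DMSO (95% interval 1.05 to 1.07, Fisher's exact test, 2-sided p = 6.76e-42). The ratios of the shares of the other tails, PD over DMSO, were 1.07 for U, 1.251 for G and 1.199 for C. A-tailed reads made up 5564 RPM in DMSO and 5150.2 RPM in PD, a ratio of 0.926 (0.918 to 0.933), and templated reads had a ratio of 0.871. The shares of all tails were thus somewhat higher in PD, while the RPM of A-tailed reads was lower. Over the reads that match a miRNA hairpin, in place of all clean reads, the ratio of A-tailed reads was 1.06, so its direction turned with the denominator.

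Reads of different lengths gave different answers. Templates of 18 to 19 bases made up 4.91% of the templated reads in DMSO and 2.41% in PD. On these short templates the A-tailed share was 1.10% in DMSO and 2.04% in PD, a ratio of 1.85. On templates of 20 to 21 bases it was 6.69% and 7.70%, a ratio of 1.15. On templates of 22 to 24 bases, which held 77.0% and 81.5% of the templated reads, it was 4.30% (4.27 to 4.33%) and 4.35% (4.32 to 4.38%), a ratio of 1.01. On templates of 25 bases or more it was 8.09% and 9.10%, a ratio of 1.13. The part of the short templates in the difference between the libraries was not tested beyond these values.

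For single arms, 87 of 128 had a higher share in PD and 41 a lower one, and the median ratio was 1.04. A ratio of 1.5 or more either way was seen in 19 arms, 14.8% of those measured, with 13 higher and 6 lower in PD. Among the 113 arms with at least 50 A-tailed reads 11 passed, or 9.73%. By the same fold, 6.19% of 97 arms differed in the U-tailed share and 8.59% of 128 in templated RPM. Fisher's exact test with Benjamini-Hochberg adjustment called 23 arms (18%), 18 higher and 5 lower in PD, and 36 arms had an unadjusted p under 0.05. Both criteria were met by 9 arms. In the lists, 1 of the 13 measured arms of the miR-290-295 cluster, 5 of the 13 of the miR-17-92 and related clusters and 0 of the 7 of let-7 were called by the test, and 0 arms of any of these lists reached 1.5-fold.

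Among arms with at least 50 A-tailed reads over both libraries, the ratio of PD to DMSO was highest for miR-152-3p, miR-382-3p and miR-148b-3p. miR-152-3p and miR-148b-3p have the same seed and are known to target DNA methyltransferase mRNA. miR-152-3p had 0.934% in DMSO (14 A-tailed and 1485 templated reads) and 2.37% in PD (40 and 1650), with adjusted p = 0.0165 in Fisher's exact test. miR-148b-3p had 2.41% (36 and 1455) and 4.36% (47 and 1031), with adjusted p = 0.0383 in the same exact test. miR-382-3p had 0.448% (27 A-tailed reads) and 0.810% (29), with adjusted p = 0.123. With templates of at least 20 bases the shares of miR-148b-3p were 4.40% and 5.67%, with p = 0.261 before adjustment in Fisher's exact test. Its templated reads of 18 to 19 bases numbered 673 in DMSO and 249 in PD, with no A-tailed read among them. On the longer templates miR-152-3p had 0.960% and 2.42%. The call of miR-148b-3p was thus lost without its short templated reads, while the shares of miR-152-3p changed little.

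The ratio was lowest for miR-124a-3p, miR-23a-3p and miR-341-3p. miR-124a-3p, a miRNA of nerve cells, had 3.02% in DMSO (150 A-tailed and 4815 templated reads) and 1.76% in PD (177 and 9885), a ratio of 0.582 (0.470 to 0.722) with adjusted p = 2.33e-05 in Fisher's exact test. Its templated level was 255.2 RPM in DMSO and 471.96 RPM in PD, a ratio of 1.85, and its U-tailed share was 43.2% in DMSO and 31.9% in PD. Of the other miRNAs typical of non-stem cells, miR-1a-3p had 157 and 166 RPM, and the remaining 9 arms had at most 17.4 RPM, some higher and some lower in PD. Among them miR-9-5p had 17.4 and 13.7 RPM, miR-9-3p 3.55 and 3.68, miR-122-5p 2.91 and 2.01, miR-124a-5p 2.28 and 3.72 and miR-451a 0.371 and 0.955, and miR-223 had no templated read in either library, which allows up to 3 reads. Whether the change in the level of miR-124a-3p had a part in its share was not tested.

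miR-341-3p had 30.6% in DMSO and 19.3% in PD, a ratio of 0.630 (0.595 to 0.667) with adjusted p = 1.29e-54 in Fisher's exact test. U-tailed reads do not enter this share, and the arm had U-tailed shares of 66.2% in DMSO and 51.4% in PD. Their part in the ratio was not tested. The leading tag of the arm had 1673 A-tailed reads in DMSO and 1326 in PD, while the template of this tag had 1460 and 3192 reads, so that the A-tailed reads differed less than the templated ones. With templates of at least 22 bases alone, which leave out this tag, the shares were 7.47% and 9.31%, the other way round. miR-23a-3p had 0.738% (36 A-tailed reads) and 0.433% (23), with adjusted p = 0.176, and 75.5% of its templated reads ended before an A.

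The higher share in PD with the lowest p was that of miR-101b-3p, which is known to target Ezh2 and is named here after its values were seen. Its share was 3.04% (1543 A-tailed reads) in DMSO and 5.18% (1812) in PD, a ratio of 1.70 with adjusted p = 7.58e-54 in Fisher's exact test. Of its templated reads, 27123 in DMSO and 11196 in PD were of 18 to 19 bases, and these had shares of 0.136% and 0.205%. On templates of at least 20 bases, with 22121 and 21996 templated reads, the shares were 6.37% and 7.52%. The higher share in PD thus came with fewer short templated reads, and the ratio was closer to 1 on the longer templates. The part of the short reads in it was not tested further. For miR-191-5p the shares were 9.67% and 11.6% (adjusted p = 3.004e-21 in the exact test), and for miR-92a-3p, a member of the miR-17-92 cluster, 3.57% and 4.87% (adjusted p = 1.60e-12). For miR-92a-3p the values on templates of at least 20 bases were 3.63% and 4.92%, so here the short templates made little difference. miR-20a-5p had 10.7% and 16.1%, or 10.8% and 16.02% on templates of at least 20 bases, with adjusted p = 0.00165 in the exact test. The lower shares in PD of miR-140-3p (7.26 to 6.81%, adjusted p = 7.97e-06), miR-292a-5p (18.2 to 16.5%, adjusted p = 0.000787) and miR-183-5p (18.9 to 16.7%, adjusted p = 0.0477) were small against their levels. That of miR-140-3p turned on visible ends, as given above, and for tags that start at the first base, with 4.89% in DMSO and 4.95% in PD.

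miR-296-3p, which lies beside miR-298 in the Gnas locus, did not reach 1000 reads in PD. Its share was 7.10% (201 A-tailed and 2629 templated reads, 6.21 to 8.11%) in DMSO and 18.6% (155 and 678 reads, 16.1 to 21.4%) in PD. Most of its templated reads were of 18 to 19 bases, with 2508 in DMSO and 596 in PD, and on templates of at least 20 bases the shares were 24.4% (39 A-tailed reads) and 24.8% (27). The shares on its short templates were 6.07% and 17.7%. The libraries thus differed in the number and the share of the short reads, while few reads were left on longer templates. miR-296-5p had 2.06% (29 A-tailed reads) and 1.84% (33). miR-21a-5p, a target of ERK signaling in many cells, had 3.02% (327) and 3.03% (337). miR-122-5p of the liver had 5 and 1 A-tailed reads with 55 and 42 templated reads, too few to compare.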

How the data were processed

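Total RNA of J1 mESCs was isolated with TRIzol, and the authors gel-purified small RNA, ligated adapters, amplified by PCR, sequenced the libraries and removed low-quality reads, adapters and short inserts. The deposited values are raw counts of clean reads per distinct tag, made by the authors without normalization. A last line with the sum and no tag was left out. The aligner was not given in the sources used here. The labels name the mouse build mm9, but tags were matched here with Python 3.11.15 and numpy 2.4.6 to 141767 GENCODE M21 transcripts (GRCm38), 1174 of them miRNA hairpins. The genome itself was not searched.

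RNAfold (ViennaRNA 2.7.2) separated the arms of each hairpin. The most frequent templated tag of an arm had to overlap the RefSeq mature sequence of that side, where RefSeq has one, by 12 nt, and tags that overlapped it by 16 nt were counted for the arm. Names came from RefSeq for 109 of 128 measured arms. Tags that matched several arms were counted for each. Shares have Wilson and ratios Katz 95% intervals. Libraries were compared by Fisher's exact test (SciPy 1.17.1, 2-sided) with Benjamini-Hochberg adjustment. The quasi-likelihood test of edgeR needs replicates and was not run. TMM of edgeR 4.0.16 and size factors of DESeq2 1.42.0 (R 4.3.3) served as alternative scalings. The code was tested on simulated data.

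The members and lists were chosen with earlier results of these data known. Named arms were the 12 highest and 5 lowest shares, the 5 with most A-tailed reads, the 3 largest rises and 3 largest falls with at least 50 A-tailed reads, the 3 hairpins with the largest ratio between arms, and, at any depth, miR-21a-5p, miR-122-5p, both arms of miR-296 and examples of the lists.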

Additional observations from a re-analysis of the deposited data

How the results depend on the processing

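The A-tailed share of all miRNAs was higher in PD under each alternative tried, with ratios from 1.02 to 1.08. The lowest was with templates of at least 22 bases. This setting, the ends whose next base is not A and the removal of the 5 arms with most A-tailed reads were chosen after seeing the data. A-tailed RPM had a ratio of 0.926 with clean reads, 0.988 with TMM of edgeR, 1.03 with size factors of DESeq2 (1 and 1 in the 2 libraries) and 1.06 over the reads that match a miRNA hairpin, so its direction turned with the scaling. The A-tailed share was 5.14 times the sum of the C-tailed and G-tailed shares, and 13.7 times with at least 20 bases left. The number of arms past 1.5-fold was 19 with 1000 reads in each library, 354 with 1 read, 58 with 200 reads, 2 with 5000 reads, and 4 at a 2-fold threshold. The number called by Fisher's exact test was 23, with 15 at 1 read, 9 at 5000 reads, 9 with the 1.5-fold criterion added and 7 with templates of at least 22 bases. The ratio of the 5p to the 3p median was 1.30, and 0.924 with 5000 reads in each library. With templates of at least 22 bases the ratio of PD to DMSO turned for miR-148b-3p (0.920) and miR-341-3p (1.246). The cause of these changes was not tested. No paired analysis was possible because there was 1 library per treatment.

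Depth limits the arms: 128 of the 1131 arms with reads had 1000 reads in each library. Strain differences at a 3′ end, reads from genome copies that are no transcript, and tails at ends before an encoded A could not be told from the counts.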
